A study of Saccharomyces cerevisiae with 6 samples.

Results

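The proteasome genes of budding yeast were compared between cells with and without glycolaldehyde. The set holds 38 genes of 6225 gene identifiers on the array and was taken from a fixed list, chosen with earlier results of these data known. It comprises 14 genes of the core particle, 10 of the base, 8 of the lid, 5 assembly factors and RPN4, the transcription factor that drives proteasome genes. All 38 were found on the array by systematic name, each with 1 probe printed as 7 spots, and all 38 were well above background on all 6 arrays. The filter on dim probes therefore left none of them out.

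The proteasome is the large protease that degrades proteins marked with ubiquitin. Its core particle is a barrel of stacked alpha and beta rings with the protease sites inside, and the regulatory particle that caps it consists of a base, which binds and unfolds substrates with a ring of ATPases, and a lid, which removes the ubiquitin. Rpn4 is a short-lived activator of nearly all of these genes in Saccharomyces cerevisiae and is itself degraded by the proteasome.

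The study compared 3 cultures of Saccharomyces cerevisiae BY4743 given 10 mM glycolaldehyde, a small reactive hydroxyaldehyde, with 3 cultures of the same strain left untreated. All were held for 4 h at 30 °C without shaking in synthetic medium with 2% glucose, starting from 3 independent starter cultures, and 200 ng of total RNA per sample was labelled with Cy3 for a one-colour array. The labels call the growth anaerobic as well as static, call the strain haploid although BY4743 is known as a diploid, and do not settle whether the overnight culture also received aldehyde. URA3, LEU2 and HIS3, which are deleted or disrupted in BY4743, were well above background on 0 of 6 arrays. All 3 a-specific, all 3 alpha-specific and all 7 haploid-specific genes listed were well above background on all 6, as were 5877 of 6225 genes. These markers lay below the median of each array, and the array medians ran from 3307 to 5055. HO, the dimmest, had intensities of 53.9 to 85.5, and STE4, the brightest, had 1641 to 3463. Groups were taken from the sample titles and treatment entries, and the free-text description of every sample states the opposite condition, so each sign below rests on the titles.

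The records of which array belongs to which sample are in conflict, and the values below follow the authors' value table. Its columns are named by sample, and each equalled the mean spot signal of exactly 1 scanner file; for 3 of 6 samples that file is filed under another sample. This moves 2 arrays to the other group and leaves 4 in the same group. Which record is right cannot be told from the files, and this grouping was used with the results of both known. Between 5929 and 6070 of 6256 probes per array were well above background, and 0 spots were saturated. Replicate 3 of both groups shared a slide and a scan day of its own. Precision is limited by having 3 arrays in a group.

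Signals are given as log2 of the deposited intensity minus the 75th percentile of the same array, and changes as glycolaldehyde minus untreated with the moderated standard error of limma (n = 3 arrays per group). A gene was called when its p, adjusted by Benjamini-Hochberg over all 5944 genes tested, was under 0.05. Since signals are relative to the other RNA on the array, more RNA of a gene per cell and a different mix of cells cannot be told apart.

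Proteasome genes were higher with glycolaldehyde in every class. Of the 38 genes 36 rose and 0 fell, where 29.6% of all genes tested rose and 23.5% fell. The median change was 0.73 on the log2 scale (1.66-fold) over the 38 genes, against 0.03 over all genes tested. Every glycolaldehyde array lay above every untreated array for 35 of the 38 genes, and for 33.8% of all genes tested. The exceptions were RPN2 and POC4, which did not pass the test, and RPN10, which passed with overlapping groups. A change above 0.5 was reached by 33 of the 38 genes and by 8.41% of all genes tested.

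**Figure D1:**
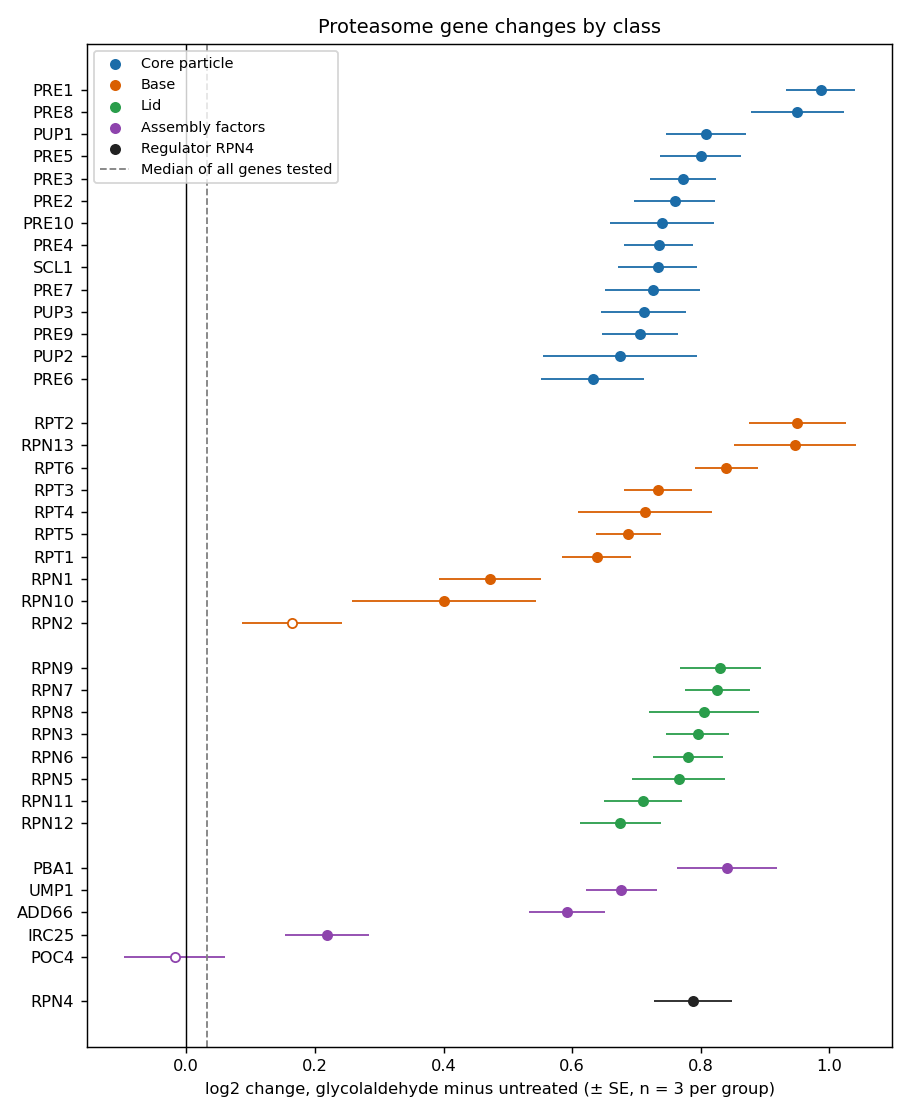
Change of each of the 38 genes on the log2 scale, glycolaldehyde minus untreated, by class. Points are fitted changes with SE bars (n = 3 per group), filled where the adjusted p was under 0.05, and the dashed line is the median of all genes tested (0.03). Core and lid genes lie between 0.63 and 0.99, while RPN1, RPN10 and RPN2 of the base and IRC25 and POC4 of the assembly factors lie below 0.5.

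RPN4, the regulator, rose to 0.63, 0.54 and 0.52 in glycolaldehyde replicates 1 to 3, against -0.15, -0.25 and -0.27 in untreated replicates 1 to 3. The groups did not overlap, and the gap between them was far wider than the spread within either. The change was 0.79 ± 0.06, or 1.73-fold (adjusted p = 5.54e-05), which placed RPN4 at rank 170 of 5944 genes from the highest. It lay within the range of the subunit genes and was close to the lid median of 0.79. The array measures the RPN4 transcript and gives no value for the Rpn4 protein.

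All 14 core particle genes rose, with changes between 0.63 and 0.99 and a median of 0.74. The 7 genes of the alpha ring, whose N-termini form the gate of the barrel, had a median of 0.73, and the 7 of the beta ring had 0.76. PRE1, a beta subunit, was at 1.73, 1.65 and 1.71 on the glycolaldehyde arrays and at 0.66, 0.72 and 0.74 on the untreated arrays. Its change of 0.99 ± 0.05, or 1.98-fold, was the highest of the 38 genes (adjusted p = 9.91e-06). All 3 of its glycolaldehyde values stood above all its untreated values by more than 0.9.

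PRE8, an alpha subunit, was at 2.11, 2.04 and 2.18 with glycolaldehyde and at 1.06, 1.15 and 1.27 without, a change of 0.95 ± 0.07. PUP1, the beta subunit with trypsin-like activity, was at 1.92, 1.87 and 1.90 with glycolaldehyde and at 0.99, 1.09 and 1.18 without, a change of 0.81 ± 0.06. The untreated arrays differed more among themselves than the treated ones for PUP1, and the groups stayed apart for both genes. The other protease subunits changed alike: PRE3, with the caspase-like site, rose by 0.77 ± 0.05, and PRE2, with the chymotrypsin-like site, rose by 0.76 ± 0.06.

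The lowest changes in the core belonged to alpha subunits. PRE6 was at 2.58, 2.40 and 2.28 with glycolaldehyde and at 1.76, 1.82 and 1.79 without, a change of 0.63 ± 0.08. PUP2 was at 1.92, 1.66 and 1.40 with glycolaldehyde and at 0.94, 1.05 and 0.96 without, a change of 0.67 ± 0.12 (adjusted p = 0.00243). PUP2 had the widest spread among treated arrays in the core, with replicate 3 lowest, and its change was 0.79 within scan day 1 and 0.44 within scan day 2. The other alpha genes were PRE5 (0.80 ± 0.06), PRE10 (0.74 ± 0.08), SCL1 (0.73 ± 0.06) and PRE9 (0.71 ± 0.06), the last being the alpha gene that yeast can live without. The other beta genes were PRE4 (0.73 ± 0.05), PRE7 (0.72 ± 0.07) and PUP3 (0.71 ± 0.07).

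In the base the ATPase genes and the other subunits differed in size. All 6 RPT genes, which encode the ATPase ring that unfolds substrates, rose by 0.64 to 0.95, with a median of 0.72. The 4 RPN genes of the base ranged from 0.16 to 0.95 with a median of 0.44, and 3 of them rose. The difference between the 2 kinds of base gene was not tested.

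RPT2, an ATPase that helps open the gate of the core, was at 1.25, 1.22 and 1.11 with glycolaldehyde and at 0.28, 0.33 and 0.10 without, a change of 0.95 ± 0.08. RPT6 was at 1.10, 1.08 and 1.08 with glycolaldehyde and at 0.23, 0.27 and 0.24 without, a change of 0.84 ± 0.05. Both genes were apart between groups on every array, and RPT6 varied little within each group. RPT3, RPT4, RPT5 and RPT1 rose by 0.73 ± 0.05, 0.71 ± 0.10, 0.69 ± 0.05 and 0.64 ± 0.05. RPN13, a ubiquitin receptor docked on Rpn2, was at 1.56, 1.48 and 1.24 with glycolaldehyde and at 0.50, 0.58 and 0.37 without, a change of 0.95 ± 0.09.

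The scaffold genes and the second ubiquitin receptor of the base had smaller changes. RPN2, the scaffold that holds Rpn13, was at 1.26, 1.17 and 0.98 with glycolaldehyde and at 1.00, 0.99 and 0.94 without. Its replicate 3 with glycolaldehyde lay inside the untreated range, and the change of 0.16 ± 0.08 did not pass (95% interval -0.02 to 0.34, adjusted p = 0.11). RPN2 passed with the replicate number as a block (adjusted p = 0.0349), the fit in which 37 of the 38 genes and 36.6% of all genes tested rose. It also passed with the scan day as a block (adjusted p = 0.0223), where 38.6% of all genes tested rose. Among the arrays of scan day 1 it passed at 0.22 (adjusted p = 0.00551), while the change within scan day 2 was 0.05. It did not pass with the slide as a block (adjusted p = 0.0852) or with replicates 1 and 2 averaged and the scan day as a block (0.13, adjusted p = 0.131). It passed without glycolaldehyde replicate 3, with a change of 0.24 (adjusted p = 0.0129).

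RPN10, a ubiquitin receptor between base and lid, was at 1.95, 1.87 and 2.18 with glycolaldehyde and at 1.43, 1.44 and 1.93 without. Replicate 3 was the high array in both groups, so that untreated replicate 3 reached into the treated range. The change of 0.40 ± 0.14 passed narrowly (adjusted p = 0.047) and was 0.47 within scan day 1 and 0.26 within scan day 2. The call was lost without any one of 5 arrays, with changes of 0.31 to 0.46 and adjusted p up to 0.145, and it was kept without untreated replicate 3, at 0.56 (adjusted p = 0.00251). With a block the call was kept: adjusted p was 0.000936 for the replicate number, 0.000365 for the scan day and 0.00357 for the slide. RPN1, the scaffold that docks shuttle proteins and Ubp6, rose by 0.47 ± 0.08 (adjusted p = 0.00187).

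All 8 lid genes of the set rose, by 0.67 to 0.83 with a median of 0.79. SEM1, a small lid subunit outside the set, rose by 0.88 ± 0.09 and is left out of the lid values. The SD over the genes of a class was 0.06 in the lid, 0.10 in the core, 0.25 in the base and 0.35 among the assembly factors. RPN9, a scaffold subunit, was at 1.62, 1.55 and 1.53 with glycolaldehyde and at 0.75, 0.81 and 0.64 without, a change of 0.83 ± 0.06. RPN7 was at 1.20, 1.15 and 1.19 with glycolaldehyde and at 0.33, 0.38 and 0.34 without, a change of 0.83 ± 0.05. Neither gene had a treated array near the untreated ones.

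RPN8, the partner of the deubiquitinase, was at 2.15, 2.00 and 2.02 with glycolaldehyde and at 1.18, 1.15 and 1.43 without, a change of 0.80 ± 0.09. Untreated replicate 3 was the high one of its group. RPN11, the deubiquitinase of the lid, was at 1.44, 1.39 and 1.31 with glycolaldehyde and at 0.72, 0.69 and 0.60 without, a change of 0.71 ± 0.06. RPN12 was at 2.52, 2.50 and 2.39 with glycolaldehyde and at 1.78, 1.73 and 1.86 without, a change of 0.67 ± 0.06. The lowest lid change thus exceeded those of RPN1, RPN10 and RPN2 in the base. RPN3, RPN6 and RPN5 rose by 0.80 ± 0.05, 0.78 ± 0.05 and 0.77 ± 0.07.

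Among the assembly factors 4 of 5 rose, and their changes spread from -0.02 to 0.84. PBA1 and ADD66 encode the partners of a chaperone that helps form the alpha ring. PBA1 was at -0.09, -0.19 and -0.23 with glycolaldehyde and at -1.00, -0.89 and -1.14 without, a change of 0.84 ± 0.08. ADD66 was at 0.84, 0.81 and 0.79 with glycolaldehyde and at 0.14, 0.23 and 0.30 without, a change of 0.59 ± 0.06. UMP1, which matures the core particle and is degraded as its first substrate, was at 0.51, 0.45 and 0.46 with glycolaldehyde and at -0.16, -0.18 and -0.28 without, a change of 0.68 ± 0.06. In these 3 genes every treated array lay above every untreated array.

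IRC25 and POC4 encode the partners of the other alpha ring chaperone, and both had small changes. IRC25 was at -1.14, -1.22 and -1.11 with glycolaldehyde and at -1.45, -1.39 and -1.28 without. The groups did not overlap but lay close, and the change was 0.22 ± 0.07 (adjusted p = 0.0244). The call was lost without glycolaldehyde replicate 1 or 3 and without untreated replicate 1 or 2, with changes of 0.18 to 0.21 and adjusted p up to 0.0951. POC4 was at -0.68, -0.49 and -0.58 with glycolaldehyde and at -0.66, -0.61 and -0.43 without. The groups were mixed, and the change was -0.02 ± 0.08 (95% interval -0.20 to 0.17, adjusted p = 0.87).

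**Figure D2:**
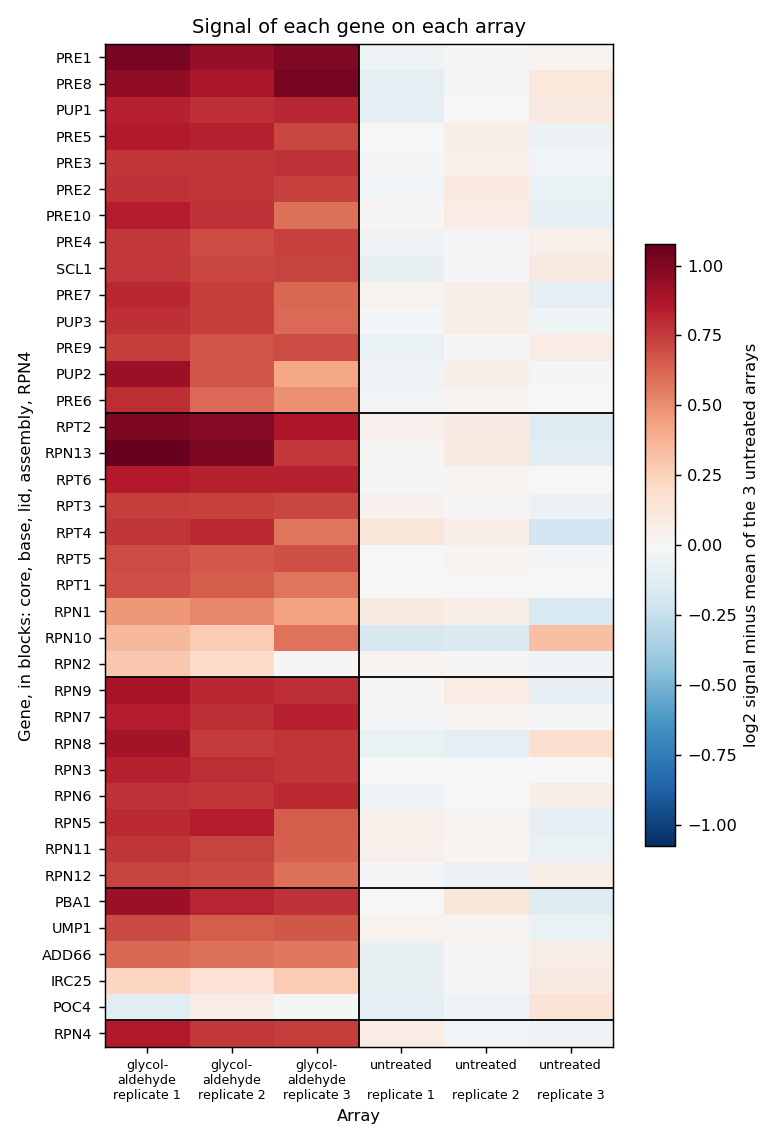
Signal of each gene on each array, as log2 signal minus the mean of the 3 untreated arrays, with glycolaldehyde arrays on the left and black lines between classes. The class medians on the glycolaldehyde arrays were 0.80, 0.76 and 0.72 for the core and 0.81, 0.78 and 0.77 for the lid, and POC4 has no treated array above all 3 untreated ones.

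Each glycolaldehyde array gave a similar median over the genes. The median of the 38 genes stood 0.78, 0.75 and 0.71 above the untreated mean on glycolaldehyde replicates 1 to 3, and at -0.01, 0.02 and -0.02 on untreated replicates 1 to 3. The untreated values are centred by construction, since the reference is the mean of the same 3 arrays. The median SD between arrays of a group was 0.06 with glycolaldehyde and 0.07 without. Within the untreated group single genes deviated in both directions: replicate 3 minus the mean of replicates 1 and 2 ran from -0.31 for RPT4 and -0.25 for RPN1 to 0.26 for RPN8 and 0.49 for RPN10.

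Each scan day held arrays of both groups. The median change of the 38 genes was 0.76 among the arrays of scan day 1, with 2 per group, and 0.72 between those of scan day 2, with 1 per group and no test. The sign was the same on both days for 37 of the 38 genes, POC4 being the exception with 0.05 and -0.15. The share of all genes that kept their sign was not counted. Across the 38 genes the changes of the 2 days correlated with Pearson's r = 0.87, and across all 5944 genes tested with 0.93. These are descriptions across genes, whose arrays are shared within a day.

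**Figure D3:**
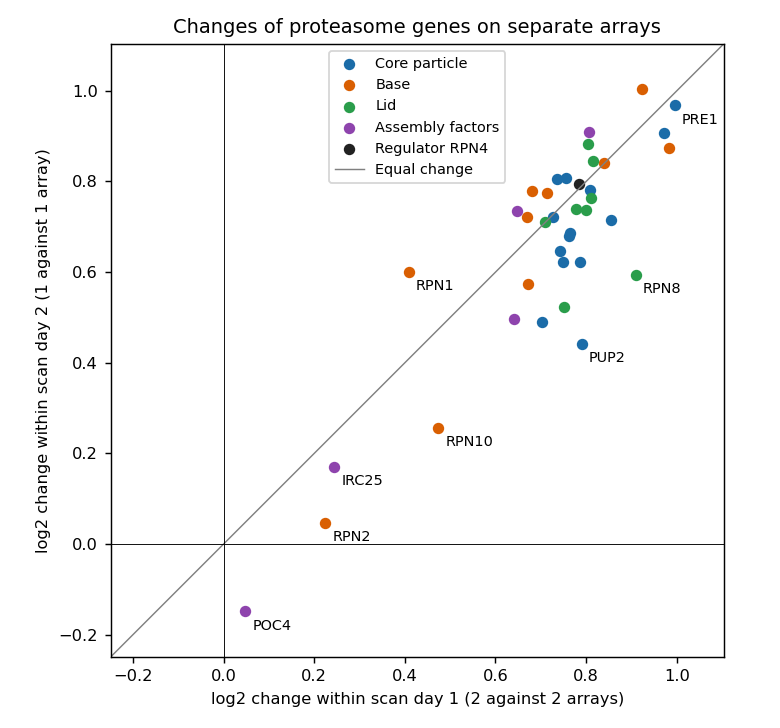
Change of each of the 38 genes within scan day 1 (horizontal) and within scan day 2 (vertical), on the log2 scale, glycolaldehyde minus untreated, with the line of equal change. Most points lie between 0.5 and 1.0 on both axes, while RPN1, RPN10, IRC25, RPN2 and POC4 lie below 0.5 on scan day 1, and PUP2 (0.79 and 0.44) and RPN8 (0.91 and 0.59) were smaller on scan day 2.

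Genes that work around the proteasome were examined as lists, and their difference from the 38 genes was not tested. These lists, with the shuttles and the factors acting on RPN4, were also chosen with earlier results of these data known. Of 14 other subunit, assembly and associated genes 9 rose and 1 fell, while 4 stayed short of the threshold, where 29.6% of all genes tested rose and 23.5% fell; the median was 0.35. ECM29, a scaffold that bridges core and regulatory particle, rose by 0.98 ± 0.08, and SEM1, a small lid subunit, by 0.88 ± 0.09. UBP6, the deubiquitinase bound to the base, rose by 0.82 ± 0.09, and HUL5, the ubiquitin ligase that counters it, by 0.54 ± 0.07. SPG5, a proteasome partner of stationary phase, had the 1 fall, by 0.27 ± 0.08 (adjusted p = 0.0203).

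The chaperones of the base differed among themselves, a comparison chosen after their values were seen. NAS6 and HSM3 rose by 0.51 ± 0.06 and 0.43 ± 0.07. NAS2 and RPN14 had changes of -0.01 ± 0.06 and -0.08 ± 0.05 (adjusted p = 0.927 and 0.201). TMA17, a base chaperone known as stress-induced, had a change of -0.09 ± 0.07 (adjusted p = 0.305).

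All 3 shuttle genes, whose proteins carry ubiquitinated substrates to the proteasome, rose: DDI1 by 0.99 ± 0.06, DSK2 by 0.57 ± 0.07 and RAD23 by 0.40 ± 0.05. All 8 genes listed as factors acting on RPN4 or its promoter also rose, with a median of 0.37, where 29.6% of all genes tested rose. YAP1, PDR1, PDR3 and HSF1 encode activators with sites in the RPN4 promoter. YAP1 was at 1.12, 1.11 and 1.09 with glycolaldehyde and at 0.32, 0.35 and 0.28 without, a change of 0.79 ± 0.05. It was the highest of the 8 and its groups were far apart, while PDR1 rose by 0.56 ± 0.05 and HSF1 by 0.30 ± 0.06. Of the other 4, MUB1 and UBR2, which form the ubiquitin ligase of the Rpn4 protein, rose by 0.53 ± 0.12 and 0.44 ± 0.10. In the 4 arrays that both records place alike, 6 of the 14, 3 of the 3 and 5 of the 8 rose, where 26.2% of all genes tested did.

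**Figure D4:**
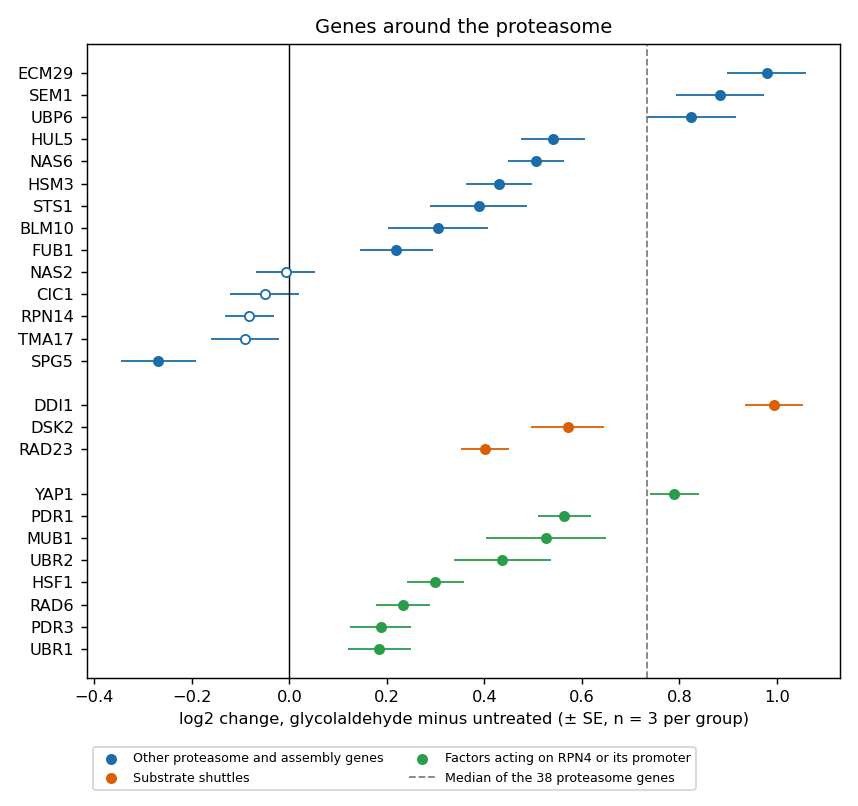
Changes of 25 genes around the proteasome on the log2 scale, glycolaldehyde minus untreated, with SE bars (n = 3 per group) and filled points where the adjusted p was under 0.05. The dashed line is the median of the 38 proteasome genes (0.73), which ECM29, SEM1, UBP6, DDI1 and YAP1 exceed.

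The conflict between the records bears on all of these values. In the 4 arrays that both place in the same group, 36 of the 38 proteasome genes rose, where 26.2% of 5962 genes tested did, with a median change of 0.71. RPN2 and POC4 were again the ones that did not pass (0.08 and 0.10, adjusted p = 0.43 and 0.287). With the scanner files as filed, 1 array of each group is exchanged. The median of the 38 genes was then 0.19, and limma called 0 of them and 0 (0%) of 5924 genes tested, the smallest adjusted p of all genes being 0.919. At an unadjusted p under 0.05 it gave 0 of the 38 and 134 of all genes. The sign was positive for 37 of the 38, with RPN2 at -0.05, and for 2932 of the 5944 genes tested in the value-table grouping. Both groupings share the 4 agreed arrays, so these signs are not independent of the value-table result.

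**Figure D5:**
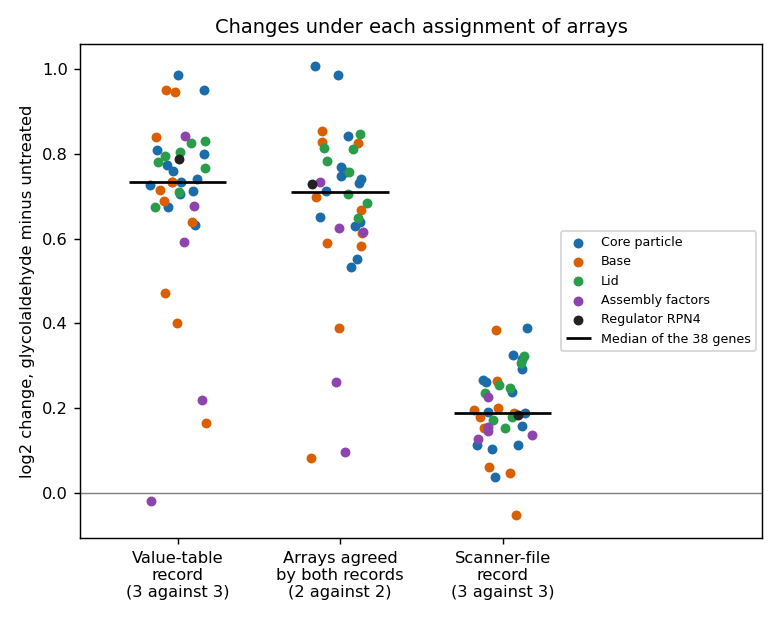
Changes of the 38 genes on the log2 scale, glycolaldehyde minus untreated, under each assignment of arrays to groups. Horizontal bars are medians: 0.73 in the value-table record, 0.71 in the 4 arrays agreed by both records and 0.19 in the scanner-file record. The spread sideways is for legibility.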

How the data were processed

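Per the file headers, the authors extracted spot intensity with Agilent Feature Extraction 11.0.1.1 (array design 015072), and the processed signal is background-subtracted on a linear scale; the submitters' processing notes also name R 3.0.2 without a role. The authors' deposited value table is the mean of a probe's 7 processed intensities (relative tolerance 1e-06), with no normalization between arrays, and its column medians were 3307, 3373 and 5055 for glycolaldehyde and 3545, 3346 and 4612 for untreated replicates 1 to 3. It had 0 columns without a sample. Outlier, background and saturation flags (other columns, deposited as 0 or 1) came from the scanner file equal to each column. Here log2 of the deposited intensity was centred on the array's 75th percentile. A gene was tested when over 0.5 of its probe's spots were well above background on all 3 arrays of a group; the brightest probe stood for the 29 genes with several. Of 6256 probes 5748 matched a gene of the reference table (R64), used for names and gene order only, since the array annotation is of another build. Treatment was the only term in lmFit and eBayes (limma 3.58.1, R 4.3.3), two-sided, checked on simulated data.

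Same-numbered arrays had correlated deviations from their group means over 5905 probes (0.331, 0.409 and 0.625). Arrays of different number were not correlated, and replicate 3 of both groups shared slide and scan day. These values therefore do not show pairing by number. The block fit, an alternative, treated samples as paired by number. The members and gene lists were chosen with earlier results of these data known. All 38 members are named; values on every array are given for RPN4, the 3 largest and 2 smallest changes of each class, and members that did not pass; of the other lists, up to 5 called genes per direction, and beyond that the base chaperones, chosen after their values were seen. Alternatives were other array records, signals, backgrounds (normexp, offset 50, on the median signal), normalizations, filters, blocks and left-out arrays. A planned promoter motif count was not run, since no promoter sequences were used here.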

Additional observations from a re-analysis of the deposited data

How the results depend on the processing

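With the scanner files as filed, 0 proteasome genes, 0 genes around the proteasome, and 0 of all genes higher and 0 lower were called, and the median of the 38 genes was 0.19; by construction this exchanges 1 array of each group. In all other alternatives with a test, between 34 and 37 of the 38 genes rose, where 22.9% to 39.9% of all genes tested rose. RPN10, IRC25 and RPN2 were the ones whose call changed. RPN10 and IRC25 were lost with median centring (adjusted p = 0.0725 and 0.0543), and RPN10 with no filter on dim probes (0.0635). With the replicate block 2174 genes rose and 1730 fell, and besides RPN2 no call of the 38 changed. Leaving out 1 array each gave 34 to 36 of the 38, a median of 0.72 to 0.77, and 16 to 18 of the 25 genes around the proteasome (20 over all arrays). Of all genes tested, 1363 to 1883 (22.9% to 31.7%) were then higher and 1121 to 1495 (18.9% to 25.1%) lower. A group left with 2 arrays borrows its spread from the pooled fit. The median of the 38 was 0.71 with median centring, 0.77 with quantile normalization and 0.75 with normexp. The fit with replicates 1 and 2 averaged has 1 residual degree of freedom. Groups of 3 arrays were not tested for outlying arrays.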

Other observations

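Genes next to proteasome genes and transcribed away from them were read off the gene order in the R64 table. Of the 38 proteasome genes 26 have such a neighbour, and 23 of these neighbours were tested. Of the 23 neighbours 6 rose, 5 fell and 12 did not pass, where 29.6% of all genes tested rose and 23.5% fell. The median change was 0.12 over the neighbours and 0.03 over all genes tested. A change above 0.5 was reached by 4 of the 23 neighbours (17.4%) and by 8.41% of all genes tested, a difference that was not tested. The risers were YPI1 beside RPN11 (0.82 ± 0.05), YTH1 beside RPN7 (0.77 ± 0.06), ALG13 beside RPT6 (0.71 ± 0.08), MPO1 beside SCL1 (0.69 ± 0.05), SWD3 beside UMP1 (0.42 ± 0.06) and OST1 beside PRE3 (0.26 ± 0.06). FUI1, the uridine permease gene beside PRE7, fell by 0.64 ± 0.06. RPO31 beside RPT5 fell by 0.47 ± 0.06, KES1 beside POC4 by 0.42 ± 0.08, RET2 beside RPN12 by 0.34 ± 0.09 and ENO1, an enolase gene beside PUP2, by 0.30 ± 0.06. This comparison was chosen after the values of the proteasome genes were seen.

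Among the mating-type markers, the pheromone genes MF(ALPHA)1 and MF(ALPHA)2 fell by 1.03 ± 0.07 and 0.58 ± 0.07 with glycolaldehyde, while STE3, the receptor gene that alpha cells use, rose by 0.39 ± 0.06. Of the 3 a-specific genes MFA1 rose by 0.33 ± 0.09 (adjusted p = 0.0137) and the others did not pass. Of the 7 haploid-specific genes NEJ1 rose by 0.51 ± 0.06, STE4 by 0.45 ± 0.05 and GPA1 by 0.37 ± 0.11, and the other 4 did not pass. Of all genes tested 29.6% rose and 23.5% fell. The markers lay below the median of each array, and the array medians ran from 3307 to 5055. MF(ALPHA)1 had intensities of 173 to 514 and NEJ1 of 269 to 586, while STE4, the brightest, had 1641 to 3463.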
